A study of Homo sapiens with 96 samples.

Results

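The respiratory chain was described here through 103 protein-coding genes, 13 encoded by the mitochondrial genome and 90 encoded in the nucleus, of 58434 genes (19879 protein-coding) in the deposited table. Members were chosen by symbol alone: every mitochondrially encoded protein gene, the numbered NDUFA, NDUFB, NDUFC, NDUFS and NDUFV subunits of complex I, SDHA to SDHD of complex II, the UQCR genes and CYC1 of complex III, the COX4 to COX8 families of complex IV, and the ATP5 genes of complex V. The NDUFAF assembly factors were left out, and NDUFA4 with its paralog NDUFA4L2 were counted in complex IV. This gave 7 mitochondrial and 37 nuclear members in complex I, 4 nuclear members in complex II, 1 and 10 in complex III, 3 and 19 in complex IV, and 2 and 20 in complex V.

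The study used the human embryonic stem cell line H9, compared neural progenitor cells (NPC) made from it with their differentiated progeny, and tested 5 compounds on the latter. Poly(A)-enriched RNA was sequenced in 96 libraries, 8 from each of 12 groups: NPC at day 0, unexposed neuron-astrocyte co-cultures at day 10 (controls), and 10 groups of day 10 co-cultures exposed to valproic acid, methyl mercury, fluoxetine, chlorpyrifos or acrylamide, each at concentrations labelled IC5 and IC20/100. The labels give no molar values and do not say which of the 2 labels is the higher. The 8 libraries of a group were technical replicates of 1 experiment, so that p-values measure technical spread only. All cultures were kept at 3% oxygen, and the differentiation medium held dibutyryl cyclic AMP. Dimethyl sulfoxide, at 0.25% in the cultures, carried chlorpyrifos, fluoxetine and methyl mercury, while no solvent but medium was used for acrylamide or valproic acid. Whether controls held the solvent is not given in the labels, so solvent and compound cannot be told apart in those 6 groups. Values are the deposited size-factor-normalised read counts unless stated otherwise, and log2 changes are on the log2(value + 2) scale with their standard error (SE).

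The respiratory chain passes electrons from NADH (complex I) and succinate (complex II) through ubiquinone to complex III, cytochrome c and complex IV, which reduces oxygen. The proton gradient built along the way drives ATP synthesis by complex V. Complexes I, III, IV and V each combine subunits from both genomes, whereas complex II is wholly nuclear. Mitochondrial messages are cut from long transcripts that cover most of each strand, and nuclear subunit genes are read from many separate promoters. Differentiating neurons are known to come to rely on oxidative phosphorylation.

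The mitochondrial members lie next to each other on chromosome M, in the order MT-ND1, MT-ND2, MT-CO1, MT-CO2, MT-ATP8, MT-ATP6, MT-CO3, MT-ND3, MT-ND4L, MT-ND4, MT-ND5, MT-ND6 and MT-CYB. MT-ND6 (chrM:14149-14673) is the one message on the minus strand. Genes overlap in 3 places. MT-ATP6 and MT-CO3 share 1 base (position 9207), and the other 2 pairs share more and are each known to be read from 1 message. These 2 pairs are shown because reads from the shared bases can be assigned to either gene, which bears on the values of MT-ATP8 and MT-ND4L below. Capitals mark the shared bases, 46 in the first pair (chrM:8527-8572) and 7 in the second (chrM:10760-10766). The sequences were taken from GENCODE 29 transcripts (GRCh38).
MT-ATP8 and MT-ATP6, chrM:8497-8602, plus strand: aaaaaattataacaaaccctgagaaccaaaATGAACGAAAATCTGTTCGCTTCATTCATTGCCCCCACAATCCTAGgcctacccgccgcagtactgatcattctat
MT-ND4L and MT-ND4, chrM:10730-10796, plus strand: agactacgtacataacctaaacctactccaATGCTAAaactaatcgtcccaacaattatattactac

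For the nuclear members, RefSeq promoter windows (GRCh38.p14, 250 bases before to 50 after the start) were found for 70 of 90, in 83 windows. Motifs of factors known to act on respiratory genes were searched on both strands and compared with all 35116 windows of 27305 genes. The GABPA motif CCGGAAG was in 26.5% of member windows and 10.3% of all windows, and the YY1 motif AAGATGGCG in 12.0% and 1.75%. The NRF1 motif, the 10 bases in capitals in the SDHD stretch, was in 4.82% of member windows and 1.24% of all, and the cyclic AMP response element TGACGTCA in 6.02% and 1.85%. CCAAT, searched as a common promoter motif, was in 34.9% and 34.6%. One stretch is shown for a gene of each kind of result below: ATP5MC1 was the nuclear member called in the most exposures, NDUFS3 is a core subunit of complex I, SDHD belongs to complex II, and ATP5F1C to complex V. Capitals mark only the motif named for each stretch (CCAAT, which the ATP5MC1 stretch also holds, is left in lower case), and a match does not show that a factor binds.
ATP5MC1 (cyclic AMP response element), chr17:48892678-48892764, plus strand, outside GENCODE 29 exons and within an intron of the antisense pseudogene SUMO2P17: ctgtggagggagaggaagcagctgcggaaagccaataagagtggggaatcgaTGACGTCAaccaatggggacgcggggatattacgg
NDUFS3 (GABPA on both strands), chr11:47578970-47578999, plus strand, overlapping exons of the neighbour KBTBD4: cgCTTCCGGctccacgtccgcCCGGAAGaa
SDHD (NRF1), chr11:112086753-112086782, plus strand, overlapping exons of the neighbour TIMM8B and of SDHD: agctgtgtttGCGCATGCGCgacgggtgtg
ATP5F1C (NRF1), chr10:7788145-7788174, plus strand, overlapping exons of ATP5F1C: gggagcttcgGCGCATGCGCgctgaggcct

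Libraries held 9.49 to 29.6 M reads (median 18.9 M). Of the 103 members, 97 passed the filter on low values (13 mitochondrial and 84 nuclear). The 6 others were the tissue isoforms COX4I2, COX6A2, COX7A1, COX7B2 and COX8C, and ATP5MGL, with medians of 0 to 3.82 in the NPC, control, acrylamide IC5 and valproic acid IC5 groups. Summed neuron markers ranged from 61392 to 67270 in NPC and from 82195 to 88898 in controls. The 7 astrocyte markers summed to 1912 to 2592 in controls, and 2 of them had means under 10. Among them GFAP had a mean of 25.7 and AQP4 of 5.41 in controls. Microglia markers were near 0 in all groups. The library of methyl mercury IC20/100 replicate 8 stood apart, and results that rest on it are given with and without it.

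In unexposed day 10 co-cultures the 13 mitochondrial messages took 2.07% ± 0.08 of all reads (SD, n = 8) and the nuclear subunits together 0.624% ± 0.022. Compared per kilobase of message, MT-CO1, the catalytic subunit of complex IV, was highest (mean value 85046 per kilobase), followed by MT-CO3 (52115) and MT-ND4 (44832). MT-ND6 was lowest at 390 per kilobase. MT-ND6 messages are known to carry little or no poly(A) tail and these libraries were poly(A)-enriched, and the part of this in its level was not tested. The kit keeps strand, but whether the counting used it is not stated, so that MT-ND6 reads and antisense reads of the opposite strand cannot be told apart. Within groups, the SD of log2 values averaged 0.11 for the median mitochondrial member and 0.13 for the median nuclear member. NDUFA4L2 spread most, with a mean within-group SD of 1.05 on the log2 scale.

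Isoform pairs showed which forms these cells read. COX4I1, the common form of the complex IV subunit COX4, was at a median of 3281 in controls, whereas COX4I2 did not exceed 1.08 in any control. COX6A1 was at 1352 and COX6A2 at 0 in every control. COX6B2, a form known from testis, had a median of 60.4 and reached 336 in 1 control, beside 1543 for COX6B1. Among the 3 genes for the identical mature c subunit of complex V, ATP5MC2 was highest (median 4795), then ATP5MC3 (1668) and ATP5MC1 (451). Readthrough and copy rows (NDUFC2-KCTD14, ATP5MF-PTCD1, UQCRHL) share sequence with NDUFC2, ATP5MF and UQCRH, so that their values are uncertain.

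Differentiation lowered most of the chain. Day 10 controls were compared with NPC, and 66 of the 97 tested members fell and 13 rose (limma, adjusted p under 0.05, over 18063 genes). Of the mitochondrial members 9 fell and 3 rose. Of the nuclear members 57 fell and 10 rose, beside 36.8% of all tested genes lower and 33.9% higher (70.7% either way). The median log2 change was -0.36 for mitochondrial and -0.29 for nuclear members, beside -0.01 for all genes tested. With libraries scaled to all reads instead, 51 nuclear members fell and 17 rose, beside 5851 of all 18063 genes lower and 6933 higher. Non-member protein-coding genes split by coding length had medians of -0.13 to -0.09. In bulk RNA, fewer cells of a type and less RNA per cell cannot be told apart, and summed markers of several cell types were apart: mesenchymal and pericyte markers were 3345 to 4513 in NPC and 1420 to 1855 in controls, oligodendrocyte lineage markers 4147 to 4534 and 10383 to 11672, and astrocyte markers 931 to 1425 and 1912 to 2592. Summed progenitor markers overlapped, at 89271 to 94018 in NPC and 93336 to 100239 in controls, so that this sum did not separate the 2 groups. The part of cell composition in these changes was not tested.

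Among the mitochondrial members MT-ND6, a membrane subunit of complex I, fell most. It ranged from 563 to 715 in NPC (median 610) and from 163 to 239 in controls (median 203). The groups did not overlap, and its log2 change was -1.60 (SE 0.08, adjusted p = 4.3e-09). MT-ND1, another membrane subunit of complex I, had 25111 to 28686 in NPC and 15866 to 17483 in controls (medians 27427 and 16132). These ranges were also apart, with a log2 change of -0.75 (SE 0.03, adjusted p = 8.1e-10). MT-ATP6, which forms the proton path of complex V, changed by -0.62 and its overlapping partner MT-ATP8 by -0.58. MT-CYB, the cytochrome b of complex III, changed by -0.53, MT-CO3 by -0.52, MT-ND3 by -0.36, MT-ND2 by -0.27 and MT-CO2 by -0.25. The 3 that rose were MT-ND5 (0.22, SE 0.04, adjusted p = 0.00024), MT-ND4 (0.16, adjusted p = 0.0035) and MT-CO1 (0.11, adjusted p = 0.0040). MT-ND4L, whose frame overlaps MT-ND4, had a change of 0.09 that did not pass (adjusted p = 0.34). The mitochondrial members thus split within complex I, where 4 fell and 2 rose. The share of all reads from mitochondrial messages overlapped, at 2.05% to 2.24% in NPC and 1.95% to 2.19% in controls.

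Counts of nuclear members by complex in differentiation are read beside the 36.8% of all genes lower and 33.9% higher. Differences between complexes were not tested. Of the nuclear complex I subunits 30 of 37 were lower and 3 higher (median log2 change -0.38). NDUFA9, a subunit of the arm that oxidises NADH, ranged from 736 to 1097 in NPC (median 950) and from 336 to 570 in controls (median 475). The ranges were apart and its log2 change was -1.06 (SE 0.11, adjusted p = 3.6e-06). NDUFA6, an accessory subunit, was at 1489 to 1843 in NPC and 752 to 863 in controls and changed by -0.97 (adjusted p = 6.5e-09). The core subunits NDUFS3, NDUFS1 and NDUFV2 changed by -0.88, -0.38 and -0.29, whereas NDUFV1, which binds NADH, rose by 0.12 (adjusted p = 0.034), a call lost in 9 of 25 alternatives. NDUFA5 (0.35) and NDUFA10 (0.21) rose as well.

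In complex II, which oxidises succinate, the iron-sulfur subunit SDHB fell (-0.59, SE 0.05, adjusted p = 4.9e-07), from 598 to 689 in NPC to 372 to 478 in controls. Its membrane anchor SDHC fell too (-0.30), while the flavoprotein SDHA (-0.15) and the anchor SDHD (-0.10) did not pass. In complex III, 6 of 10 nuclear members fell and 2 rose. UQCRC1, a core protein, ranged from 2861 to 3399 in NPC and from 1740 to 2012 in controls, ranges that were apart (log2 change -0.80, SE 0.04, adjusted p = 8.6e-09). Its partner UQCRC2 rose by 0.23 and UQCRB by 0.24, whereas CYC1, the cytochrome c1 subunit, fell by 0.55 on the log2 scale and the Rieske iron-sulfur protein UQCRFS1 by 0.49.

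In complex IV, 7 of 14 tested nuclear members were lower and 3 higher (median log2 change -0.15). Of all genes 36.8% were lower and 33.9% higher (70.7% either way). COX8A (-0.74), NDUFA4 (-0.68) and COX6A1 (-0.52) fell, and COX5A changed by -0.35. COX7A2L, known for joining complexes III and IV into supercomplexes, ranged from 1372 to 1667 in NPC (median 1521) and from 2026 to 2348 in controls (median 2248). It was higher in every control than in any NPC library (log2 change 0.57, SE 0.05, adjusted p = 3.8e-07). COX7C rose by 0.36 and the low COX6B2 by 1.22 (SE 0.27, adjusted p = 0.0015). COX4I1, the largest nuclear subunit of complex IV, had a change of 0.06 that did not pass.

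In complex V, 12 of 19 tested nuclear members fell and 2 rose. ATP5MF, a small membrane subunit, was at 1586 to 2038 in NPC and 784 to 1023 in controls, with no overlap (log2 change -1.01, SE 0.07, adjusted p = 9.5e-08). The 3 genes for the c subunit went different ways: ATP5MC1 changed by -0.59 and ATP5MC3 by -0.38, while ATP5MC2, the most abundant of them, rose by 0.22 (adjusted p = 0.00099). The subunits ATP5F1C, ATP5F1B and ATP5F1A changed by -0.28, -0.25 and -0.17, and the inhibitor ATP5IF1 by 0.05, which did not pass.

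Counts for other mitochondrial gene lists in differentiation are read beside the 36.8% of all genes that were lower and 33.9% that were higher. Of 78 mitochondrial ribosome genes 53 fell and 5 rose (median log2 change -0.36), with MRPL48 at -1.10 and MRPL27 at -1.05. Of 18 genes of the tricarboxylic acid cycle 14 fell and none rose, among them IDH2 (-1.01) and OGDH (-0.76). Of 30 genes for the expression of mitochondrial DNA 18 fell and 6 rose, including HSD17B10 (-0.97), part of the enzyme that cuts mitochondrial transfer RNA. Of 10 tested biogenesis regulators 7 fell and none rose: GABPB1, the partner of GABPA, changed by -1.53 and TFAM, which packages and helps to transcribe mitochondrial DNA, by -0.63. Assembly factors were near that background, with 22 of 53 lower and 12 higher (median -0.13), and COX15, needed for heme a, rose by 1.26. Of 7 tested hypoxia-linked genes 5 rose, led by BNIP3 (1.84) and PDK1 (1.36), which directs pyruvate away from the cycle. Of 16 import and chaperone genes 10 fell and 1 rose, and of 12 tested electron carriers and other partners 6 fell, among them cytochrome c (CYCS, -0.63), and 5 rose.

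**Figure D1:**
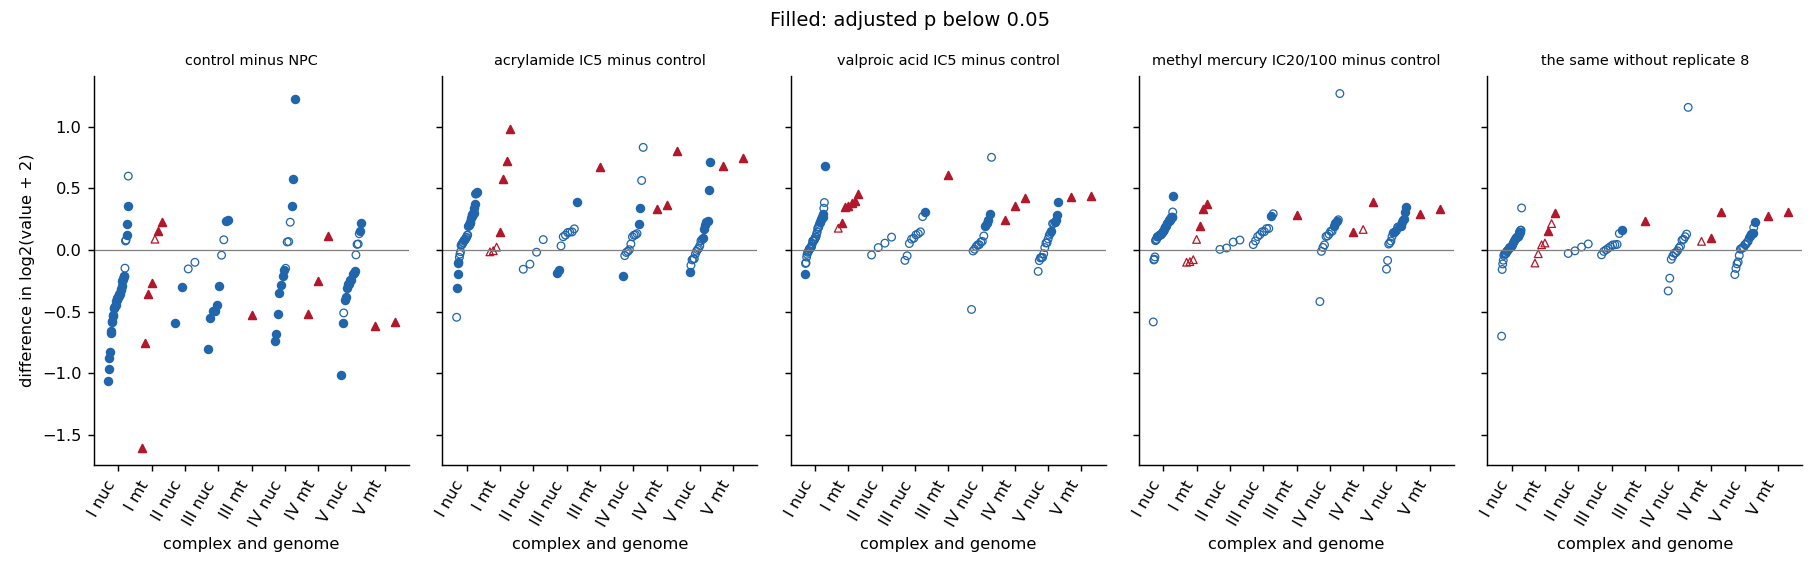
Log2 change of each tested member, grouped by complex and genome, in the comparison of controls with NPC and in the exposures shown. Each point is 1 gene, filled where adjusted p was under 0.05, with mitochondrial genes as triangles. Most members lie below 0 in differentiation, and the called mitochondrial members lie above 0 in acrylamide IC5, valproic acid IC5 and methyl mercury IC20/100.

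The share of reads from the 13 mitochondrial messages separated 3 exposed groups from the controls. It was 1.95% to 2.19% in controls, 2.48% to 2.89% with acrylamide IC5 (mean 2.72%), 2.58% to 2.75% with valproic acid IC5 (mean 2.65%) and 2.26% to 2.58% with chlorpyrifos IC5 (mean 2.45%). All 8 libraries of these 3 groups were above the highest control. Within each of the 6 sequencing runs the difference was positive in all 3, at 0.535 to 0.769 percentage points for acrylamide IC5, 0.477 to 0.661 for valproic acid IC5 and 0.281 to 0.554 for chlorpyrifos IC5. The other 7 exposed groups overlapped the controls, with means of 2.11% to 2.33%. The nuclear subunits' share overlapped the controls in all 3: it was 0.587% to 0.663% in controls (mean 0.624%), 0.624% to 0.674% with acrylamide IC5, 0.599% to 0.655% with chlorpyrifos IC5 and 0.632% to 0.698% with valproic acid IC5 (mean 0.662%, with 2 libraries above the highest control). The mean log2 value of the nuclear members was above the highest control in 5 of 8 libraries with acrylamide IC5, 4 with chlorpyrifos IC5 and 6 with valproic acid IC5. The mean log2 value of mitochondrial minus nuclear members was 3.79 ± 0.08 in controls, 4.16 ± 0.06 with acrylamide IC5 and 4.06 ± 0.05 with valproic acid IC5 (SD, n = 8). All 8 libraries of both exposed groups lay above the highest control (3.90). Reads listed under nuclear pseudogenes of mitochondrial genes moved along, from 0.0207% to 0.0248% of reads in controls to 0.0276% to 0.0369% with acrylamide IC5, and reads of the 2 kinds may be shared. Those of the other chromosome M genes, mostly ribosomal RNA, were at 0.372% to 0.428% in controls and 0.350% to 0.415% with acrylamide IC5, ranges that overlapped.

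**Figure D2:**
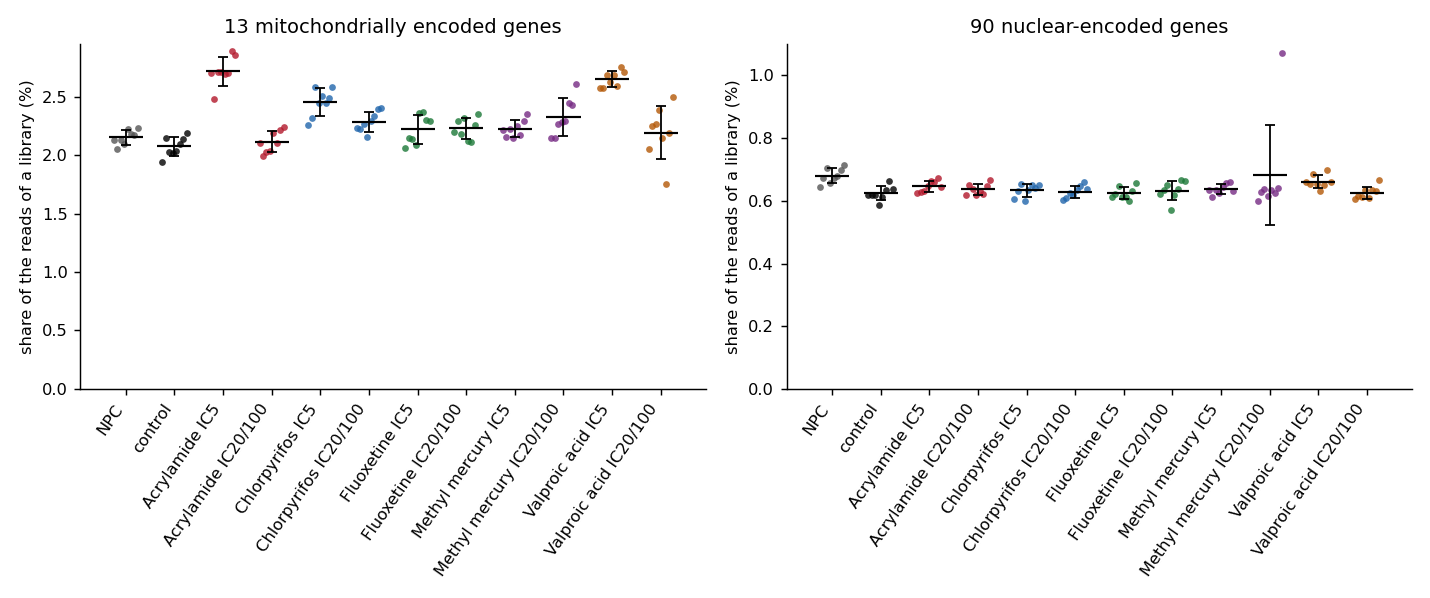
Percent of all reads from the 13 mitochondrial messages and from the nuclear subunits in each of the 96 libraries, by group. Points are libraries, and bars give the group mean and SD. The mitochondrial share of acrylamide IC5, valproic acid IC5 and chlorpyrifos IC5 lies above every control, and methyl mercury IC20/100 replicate 8 stands apart in the nuclear share.

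Acrylamide, a neurotoxic vinyl monomer that reacts with thiols, gave the largest change at IC5. Of the 13 mitochondrial members 10 rose and none fell, and of the 84 nuclear members 22 rose and 7 fell, beside 20.5% of all 20136 genes higher and 21.5% lower (42.0% either way). Median log2 changes were 0.58 for mitochondrial and 0.09 for nuclear members, and -0.01 for all genes. MT-CO3, a core subunit of complex IV, ranged from 65663 to 77146 (median 72246) with acrylamide IC5 and from 38438 to 43965 (median 40402) in controls. The ranges were far apart, with a log2 change of 0.81 (SE 0.06, adjusted p = 3.5e-21). MT-ND6 was at 329 to 462 (median 413) and at 163 to 239 (median 203) in controls. Every exposed library lay above every control, with a log2 change of 0.98 (SE 0.09, adjusted p = 1.0e-15). MT-ATP6 rose by 0.75, MT-ND1 by 0.72, MT-ATP8 by 0.68, MT-CYB by 0.67 and MT-ND3 by 0.58. MT-CO1 (0.36), MT-CO2 (0.33) and MT-ND2 (0.14, adjusted p = 0.011) rose less. The 3 neighbours MT-ND4L (-0.02), MT-ND4 (-0.01) and MT-ND5 (0.02) did not pass (adjusted p = 0.91, 0.94 and 0.78). MT-ND4 itself ranged from 54666 to 68749 with acrylamide IC5 and from 55143 to 67569 in controls, almost the same span. MT-ND1 and MT-ND4, both in complex I and on the same strand, thus did not move alike.

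Nuclear subunits under acrylamide IC5 were counted by complex, and differences between complexes were not tested. These counts are read beside the 20.5% of all genes that were higher and 21.5% that were lower. In complex I, 12 of 37 rose and 3 fell, in complex V 7 of 19 rose and 1 fell, in complex IV 2 of 14 rose and 1 fell, in complex III 1 of 10 rose and 2 fell, and in complex II 0 of 4 were called. ATP5MF rose most among the nuclear members: it ranged from 1253 to 1845 (median 1435) and from 784 to 1023 in controls (median 885). The ranges were apart, with a log2 change of 0.71 (SE 0.10, adjusted p = 2.9e-09). ATP5MC1 ranged from 516 to 678 (median 634) and from 403 to 476 in controls (median 451). It too was higher in every exposed library (0.49, SE 0.08, adjusted p = 8.9e-08). NDUFS3 rose by 0.47 (adjusted p = 0.012), but its ranges of 892 to 1359 and 488 to 1163 overlapped, and without control replicate 4 the call was lost. NDUFA9 (0.46), UQCRQ (0.39), NDUFA8 (0.37) and COX6A1 (0.34) also rose.

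The 7 nuclear members that fell with acrylamide IC5 changed little. NDUFA7, an accessory subunit of complex I, was at 374 to 454 and at 456 to 595 in controls, ranges that did not overlap (-0.31, SE 0.07, adjusted p = 0.00039). COX7A2L changed by -0.21 (adjusted p = 0.00020), from 2026 to 2348 in controls to 1861 to 2084. NDUFA10 (-0.20), UQCRB (-0.19), ATP5MG (-0.18), UQCRC2 (-0.17) and NDUFA5 (-0.11) completed the set. The c subunit gene ATP5MC3 rose by 0.17, while ATP5MC2 did not pass. Summed oligodendrocyte lineage markers were 10383 to 11672 in controls and 5651 to 6256 with acrylamide IC5, and progenitor markers 93336 to 100239 and 75106 to 83597. Neuron markers were 77137 to 81679, also below every control (82195 or more), and mesenchymal markers overlapped the controls. Their part in these results was not tested.

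Acrylamide at IC20/100 gave no call. By limma 0 of 97 members passed, and 5 had an unadjusted p under 0.05; edgeR and DESeq2 each called 0. Over all genes 0.0497% were higher and 0.00993% lower (0.0596% either way). MT-CO3 ranged from 40943 to 47103 and MT-ND6 from 177 to 223, both overlapping the controls. Tested against each other, the 2 concentrations differed in 9 mitochondrial members, all higher at IC5, and in 24 nuclear members, 18 higher and 6 lower, beside 20.0% of genes higher and 21.1% lower (41.1% either way). MT-ND6 differed by 1.03 (SE 0.09, adjusted p = 1.1e-16), MT-CO3 by 0.73 and MT-CYB by 0.61. Of nuclear members ATP5MF differed by 0.65 and ATP5MC1 by 0.45. This contrast shares no library with the differentiation contrast. Of the 23 nuclear members called in both, 17 were higher at IC5 and lower in controls than in NPC, and 4 were lower at IC5 and higher in controls, 91.3% together. This share was 82.1% over all 6403 genes called in both, so that the nuclear members were close to the background. Of the 9 mitochondrial members called in both, 8 were higher at IC5 and lower in controls than in NPC (88.9%). For the valproic acid concentrations the same share was 100% of 9 nuclear members and 70.0% of 10 mitochondrial members. Over all 2663 genes called in both it was 65.7% there.

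**Figure D3:**
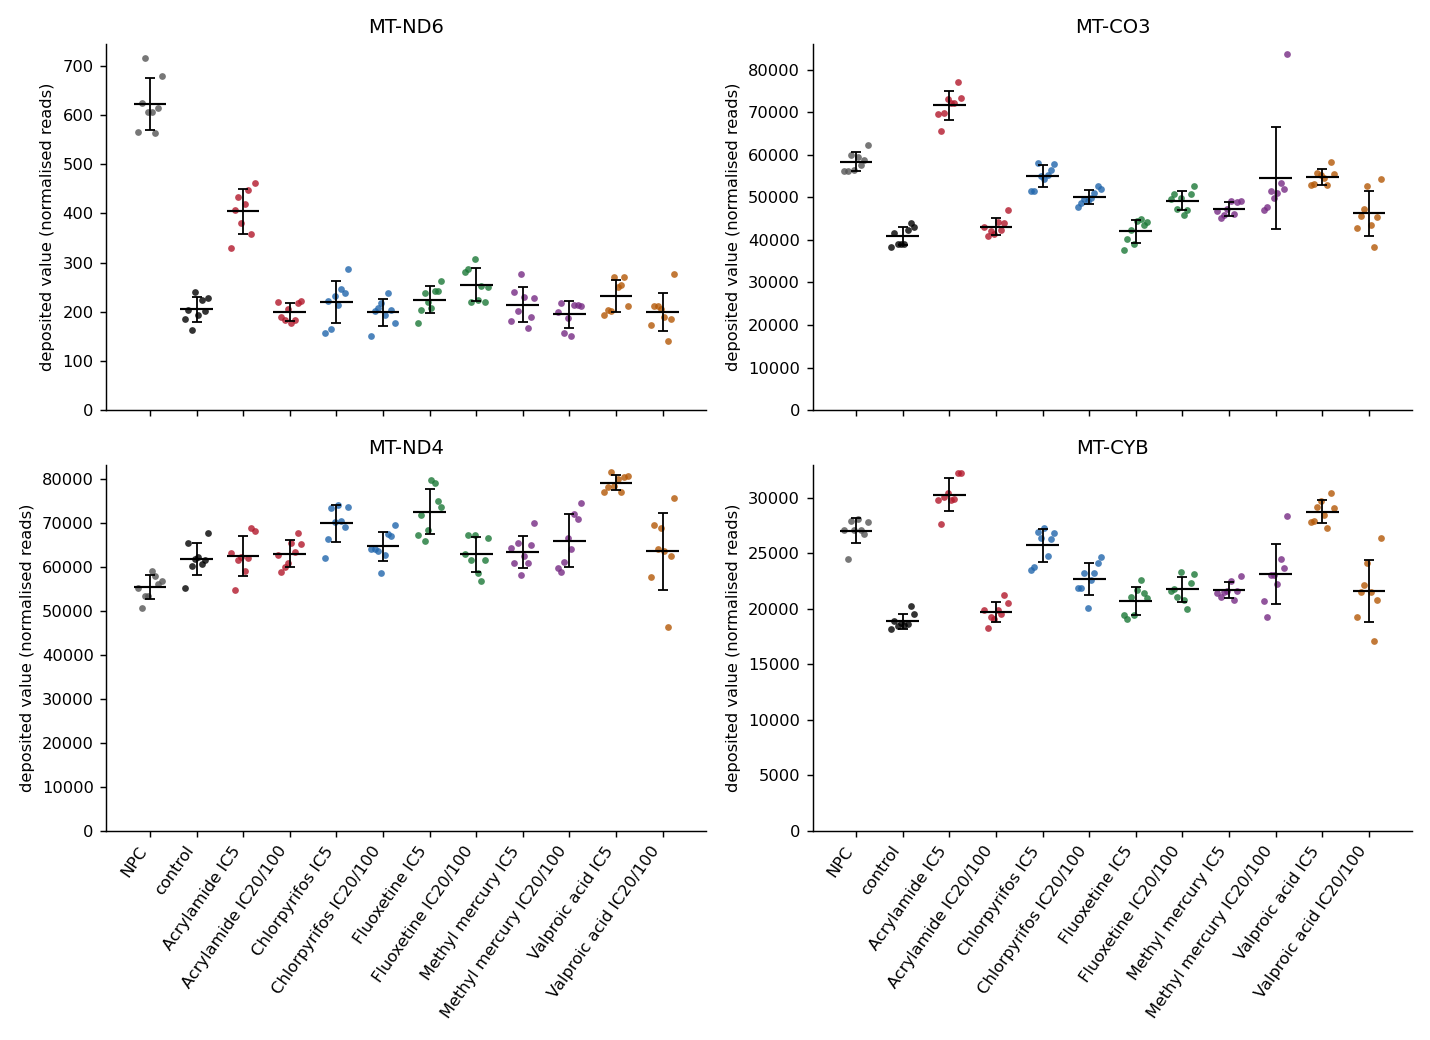
Normalised values of MT-ND6, MT-CO3, MT-ND4 and MT-CYB in every library, by group. Points are libraries, and bars give the group mean and SD. MT-ND6 and MT-CO3 are high in NPC and with acrylamide IC5, MT-ND4 is not, and its mean is highest with valproic acid IC5.

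Valproic acid, an anticonvulsant that also inhibits histone deacetylases, raised the mitochondrial messages more evenly at IC5. Of the 13 members 12 rose, and of the 84 nuclear members 18 rose and 1 fell, beside 14.5% of genes higher and 12.4% lower (26.9% either way). Median log2 changes were 0.38, 0.09 and, for all genes, 0.00. MT-CYB ranged from 27275 to 30385 (median 28786) and from 18214 to 20288 in controls (median 18651). The ranges were apart, with a log2 change of 0.60 (SE 0.05, adjusted p = 5.6e-17). MT-ND4 was at 76972 to 81450 (median 79092), above every control (highest 67569), and rose by 0.36 (SE 0.05, adjusted p = 8.4e-09). MT-ND4L rose by 0.38 and MT-ND5 by 0.22. MT-ND6 alone did not pass (0.18, adjusted p = 0.13), and its range of 193 to 271 overlapped the controls.

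Among nuclear members with valproic acid IC5, UQCRFS1 ranged from 1181 to 1260 (median 1217), above all controls (910 to 1075, median 966), a log2 change of 0.31 (SE 0.06, adjusted p = 4.3e-05). ATP5F1D, of the complex V stalk, rose by 0.39 (adjusted p = 0.0055), ATP5MC1 by 0.28 and COX6C by 0.29. NDUFB4 rose by 0.68 (SE 0.25, adjusted p = 0.037), but its values varied widely in all groups and its range of 611 to 2118 overlapped that of controls, 539 to 1164, and 9 of 27 alternatives lost the call. Summed oligodendrocyte lineage markers were 8244 to 9649, below every control, and their part in these results was not tested. By complex, 8 of 37 nuclear members rose in complex I, 5 of 19 in V, 4 of 14 in IV, 1 of 10 in III and 0 of 4 in II. At IC20/100 the mitochondrial members MT-ND1 (0.28) and MT-CYB (0.17) rose, and 0 nuclear members were called by limma (5 with an unadjusted p under 0.05), edgeR or DESeq2, beside 1.17% of genes higher and 1.37% lower (2.54% either way). The libraries of this group spread widely, with MT-CYB from 17121 to 26384. The concentrations differed in 11 mitochondrial and 9 nuclear members, all higher at IC5, beside 9.73% of genes higher and 7.27% lower (17.0% either way), with MT-CYB at 0.43 and MT-ND4 at 0.35.

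Chlorpyrifos, an organophosphate that inhibits acetylcholinesterase, raised 10 of 13 mitochondrial and 4 of 84 nuclear members at IC5, and lowered none, beside 9.92% of genes higher and 9.75% lower (19.7% either way). MT-CYB was at 23474 to 27277 (median 26318), above every control, with a log2 change of 0.44 (SE 0.05, adjusted p = 3.6e-11). MT-CO3 was at 51402 to 58155, also above every control, and rose by 0.43. MT-ND4L (0.15), MT-ND5 (0.13) and MT-ND6 (0.09) did not pass. The 4 nuclear members were ATP5MF (0.29), UQCRFS1 (0.20), ATP5MC1 (0.20) and NDUFA10 (0.12). Progenitor markers summed to 81009 to 87182 and oligodendrocyte lineage markers to 7421 to 8392, both below every control, and their part was not tested. At IC20/100, 6 mitochondrial members rose, led by MT-ND1 (0.33), with ATP5MC1 (0.23) and UQCRFS1 (0.21), beside 7.06% of genes higher and 7.02% lower (14.1% either way). Progenitor (84962 to 93301), oligodendrocyte lineage (7491 to 8392) and mesenchymal markers (1049 to 1383) were below every control there, and their part was not tested. Between the concentrations 0 of 97 members differed by limma, edgeR or DESeq2. By limma 6 had an unadjusted p under 0.05, all mitochondrial, and the background was 0.0397% higher and 0.00993% lower (0.0497% either way).

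Fluoxetine, a serotonin reuptake inhibitor, changed few members at either of its 2 concentrations. At IC5 MT-ND4 ranged from 65965 to 79660 (median 72666) and from 55143 to 67569 in controls (median 61619). The ranges overlapped slightly, and the log2 change was 0.23 (SE 0.05, adjusted p = 0.00056). MT-ND5 rose by 0.20 (adjusted p = 0.0084), and the other 11 mitochondrial members did not pass, beside 5.47% of genes higher and 5.94% lower (11.4% either way). Without methyl mercury IC20/100 replicate 8, which shares the fit, MT-ATP6 (0.16, adjusted p = 0.030) and MT-CYB (0.13, adjusted p = 0.034) passed as well. At IC20/100 MT-ND4 (0.02) and MT-ND5 (-0.03) did not pass, and MT-ATP8 (0.38), MT-ND6 (0.31), MT-ND1 (0.30), MT-CO3 (0.27), MT-ATP6 (0.23) and MT-CYB (0.20) rose, beside 6.88% of genes higher and 7.54% lower (14.4% either way). The difference between concentrations was tested directly. MT-ND5 (0.23, adjusted p = 0.0043) and MT-ND4 (0.20, adjusted p = 0.0061) were higher at IC5, while MT-ATP8 (-0.32), MT-CO3 (-0.23) and MT-ND1 (-0.20) were lower there, beside 2.30% of genes higher and 1.46% lower (3.76% either way). For MT-CO3 the ranges did not overlap, with 37719 to 44905 at IC5 and 45897 to 52578 at IC20/100. These 5 calls held without that library too. Oligodendrocyte lineage markers were below every control at both concentrations (5800 to 6643 at IC5 and 6861 to 8110 at IC20/100), as were progenitor markers at IC20/100 (81058 to 89320), and their part was not tested. Of the nuclear members ATP5MC1 was called at both concentrations (0.21 each), and 0 differed between them by limma (6 with an unadjusted p under 0.05), edgeR or DESeq2.

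Methyl mercury, an organic mercury compound that binds thiols, raised MT-ND1 (0.25), MT-CO3 (0.21), MT-CYB (0.19) and 1 nuclear member, NDUFA10 (0.13), at IC5, beside 4.85% of genes higher and 6.06% lower (10.9% either way). Neuron markers (72135 to 80467) and oligodendrocyte lineage markers (5931 to 7163) were below every control at IC5, as were oligodendrocyte lineage markers at IC20/100 (5693 to 8041), and their part was not tested. At IC20/100, 8 mitochondrial and 21 nuclear members rose, beside 8.21% of genes higher and 7.60% lower (15.8% either way), but the nuclear count rested on replicate 8. In that library the nuclear members lay a median 1.03 (log2) above the mean of the other 7 libraries, with 81 of 84 higher, and the mitochondrial members 0.36 above, with 10 of 13 higher. For example, ATP5MC1 was at 448 to 1068 in the group, with a median of 519. Over all genes the median was 0.00, but non-member coding genes moved by coding length, from 0.64 at 500 bases or less to -0.32 above 2000 bases. Without replicate 8 the median log2 change of nuclear members against controls went from 0.15 to 0.03. In that fit 7 mitochondrial and 10 nuclear members were called, all higher, beside 6.65% of genes higher and 6.72% lower. With only the 2 groups compared and all their libraries kept, 1 member was called. Between the concentrations MT-ATP6 (-0.19) and MT-CO3 (-0.18) were lower at IC5 (adjusted p = 0.037 and 0.038), beside 2.58% of genes higher and 2.60% lower (5.17% either way), and neither remained without replicate 8, when the median nuclear difference went from -0.10 to 0.02. By limma 0 nuclear members were called in this contrast (12 with an unadjusted p under 0.05), and edgeR and DESeq2 called 4 each.

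The same library also set the spread shared by all day 10 comparisons. Without it, nuclear calls went from 29 to 44 with acrylamide IC5 (36 higher, 8 lower), from 4 to 17 with chlorpyrifos IC5 (15 higher, 2 lower) and from 19 to 31 with valproic acid IC5 (30 higher, 1 lower). The shares of all genes in that fit were, in the same order, 22.3% higher and 23.1% lower, 12.3% and 11.5%, and 16.7% and 14.7%. Nuclear calls with fluoxetine went from 1 to 13 at IC5 (12 higher, 1 lower) and from 1 to 11 at IC20/100 (all higher). With methyl mercury IC5 they went from 1 to 12 (all higher). The shares of all genes in that fit were, in the same order, 7.68% higher and 7.64% lower, 8.89% and 9.20%, and 7.27% and 7.37%. Mitochondrial calls were 10 with acrylamide IC5 and 12 with valproic acid IC5 in both fits.

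**Figure D4:**
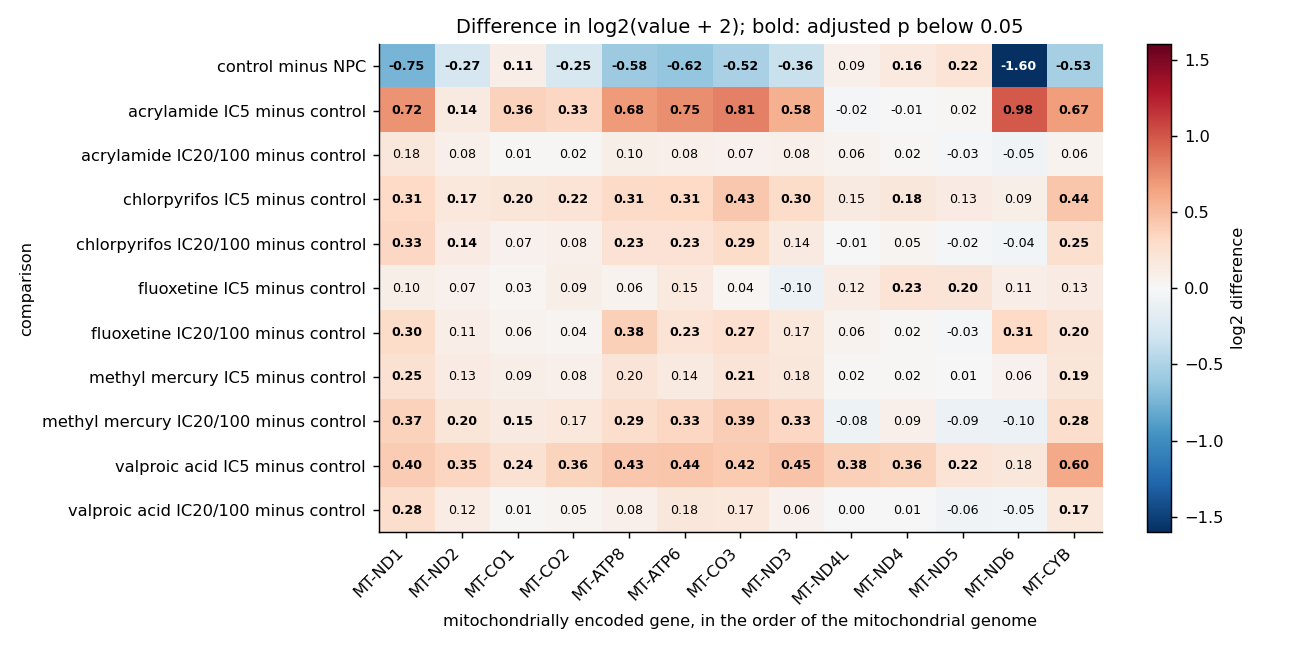
Log2 change of the 13 mitochondrial members, in their order on chromosome M, in differentiation and in the exposures. Colour and number give the change, in bold where adjusted p was under 0.05. The stretch from MT-ND4L to MT-ND5 stays near 0 with acrylamide IC5 and rises with valproic acid IC5.

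Set side by side over the 10 exposures, which share the same 8 controls and so are not independent, MT-ND1 and MT-CYB were called in 8 exposures each, MT-CO3 in 7, MT-ATP6 and MT-ATP8 in 6 and MT-ND2 in 5. MT-ND5 and MT-ND6 were called in 2 and MT-ND4L in 1. No mitochondrial member fell in any exposure. Of the 84 nuclear members 42 were called in no exposure. The share of all genes called in none was not counted. Neither this number nor the members below that were called in none can therefore be set beside a background. ATP5MC1 was called in 7, at log2 changes of 0.20 to 0.49, but the calls with chlorpyrifos IC5 and with both fluoxetine concentrations were lost with edgeR and DESeq2 (adjusted p = 0.0523 to 0.0674). UQCRFS1 was called in 4: chlorpyrifos at both concentrations, methyl mercury IC20/100 and valproic acid IC5. COX4I1, COX5B and CYC1 were called in none. The 4 subunits of complex II, which has no mitochondrial member, were called in none of the 10 exposures by limma, edgeR or DESeq2. By limma 3 of these 40 tests had an unadjusted p under 0.05, and log2 changes ranged from -0.22 to 0.15.

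**Figure D5:**
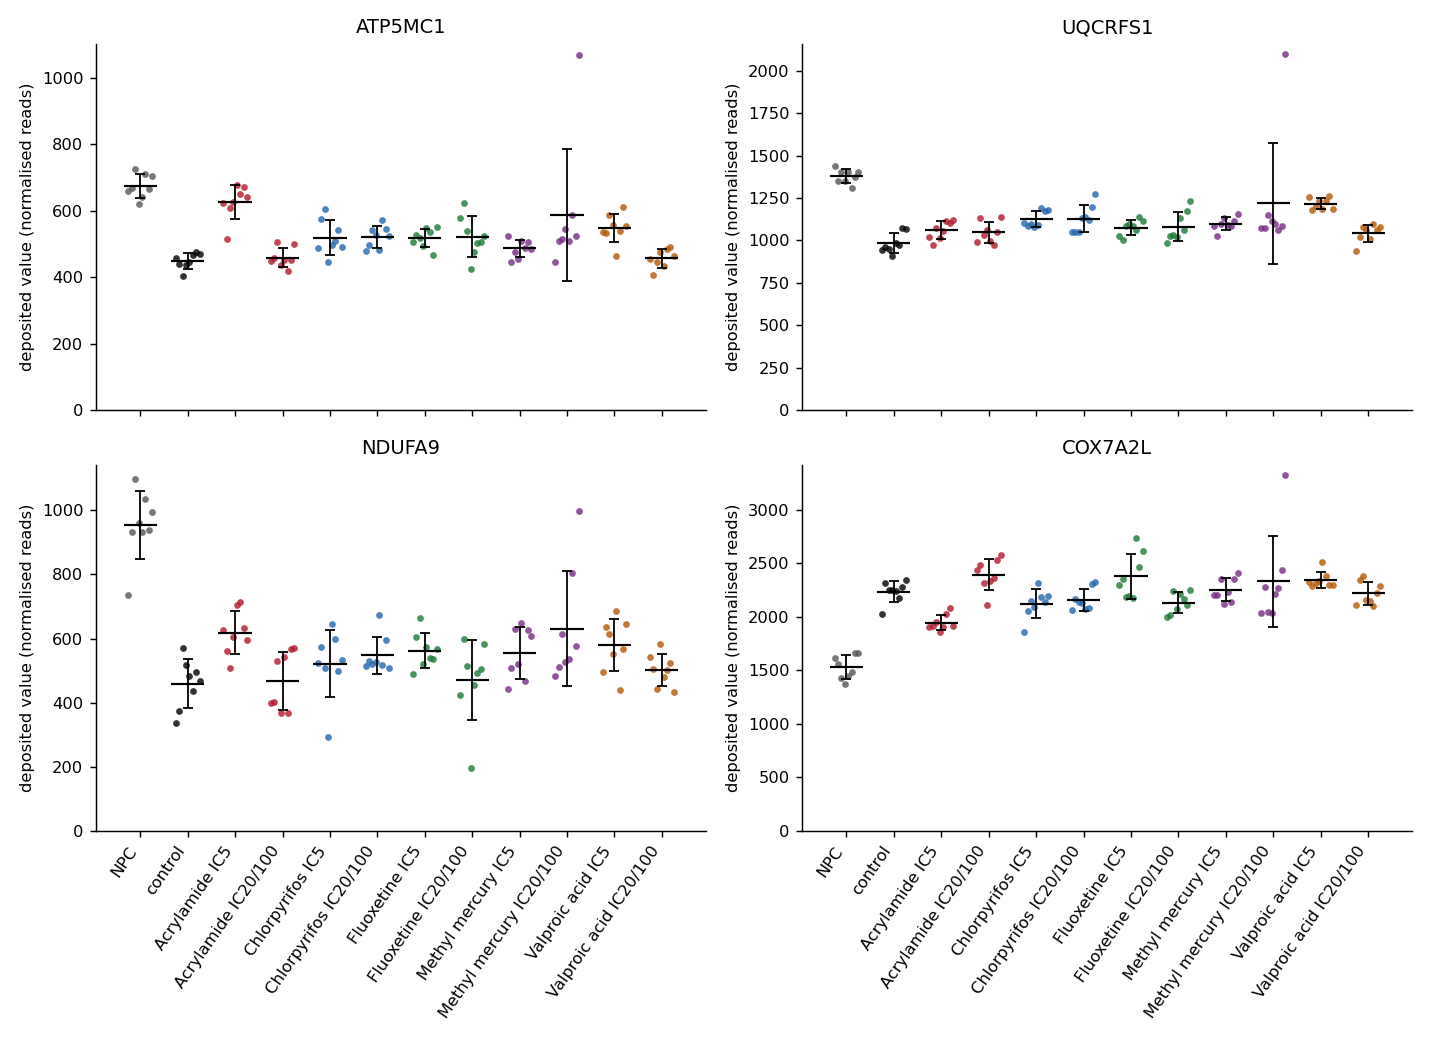
Normalised values of ATP5MC1, UQCRFS1, NDUFA9 and COX7A2L in every library, by group. Points are libraries, and bars give the group mean and SD. ATP5MC1 is high in NPC and with acrylamide IC5, COX7A2L is low in NPC, and methyl mercury IC20/100 replicate 8 lies above its group in all 4 panels.

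Counts for the other mitochondrial gene lists with acrylamide IC5 are read beside the 20.5% of all genes that were higher and 21.5% that were lower, and those for the ribosome and assembly factor lists were in part close to it. Of 30 genes for mitochondrial gene expression 11 rose and 2 fell (median log2 change 0.09). HSD17B10 rose by 0.74, and SLIRP, which stabilises mitochondrial messages together with LRPPRC, rose by 0.52, whereas TFB1M fell by 0.52 on the log2 scale. Of 78 mitochondrial ribosome genes 18 rose and 8 fell, of 53 assembly factors 10 rose and 12 fell, and of 18 cycle genes 5 rose and 2 fell. Of 10 tested biogenesis regulators 4 rose, among them ESRRA (0.66), and 2 fell, with PPARGC1A, a coactivator of these genes, at -1.15. All 6 called genes of 7 tested hypoxia-linked genes fell, with EGLN3 at -1.60, BNIP3 at -1.45 and PDK1 at -1.03. Of 16 import and chaperone genes 4 rose and 3 fell, and of 12 tested partners 1 rose and 5 fell. With valproic acid IC5, where 14.5% of all genes were higher and 12.4% lower, 7 of 30 gene expression genes rose and 2 fell, 15 of 78 ribosome genes rose and 4 fell, and 2 of 7 hypoxia-linked genes fell, with LONP1 at -0.23. Of 53 assembly factors 4 rose and 4 fell there, and of 18 cycle genes 1 rose and 1 fell. Of 16 import and chaperone genes 2 rose and 3 fell, and of 12 tested partners 2 rose and 3 fell. Of 10 tested biogenesis regulators 2 rose and none fell. HSD17B10 (0.41), ESRRA (0.33) and TFAM (0.20) rose with valproic acid IC5 too.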

How the data were processed

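Poly(A)-enriched RNA of 96 libraries was sequenced with a stranded kit, per the labels' protocols. Per the submitters' processing notes, bcl2fastq, FastQC 0.11.8, MultiQC 1.0, Salmon 1.3.0, DESeq2 1.30.0 and GRCh38 were used. Neither the annotation release nor the use of strand is stated there. The deposited signal values are gene counts divided by 1 size factor per library, as read from the values: 100% came out as whole reads (within 0.001) once rescaled, at 9.49 to 29.6 M reads per library. The main test was limma 3.58.1 (R 4.3.3) on log2(value + 2) with sequencing run as covariate and Benjamini-Hochberg adjustment over all genes that reached 10 in 8 or more libraries. Controls and NPC were fitted alone (16 libraries), and the day 10 groups together (88 libraries). Recovered reads were also tested with edgeR 4.0.16 and DESeq2 1.42.0. Scripts were tested on simulated data. Further alternatives were the pseudocount, the filter, the scaling, the run term, a replicate block and leaving out each library in turn. No 2 replicates were alike enough to be 1 library. The members, gene lists and rule for named genes were chosen with earlier results of these data known. That rule names the mitochondrial members, core subunits, isoform pairs, and the 3 largest called rises and falls among nuclear members with a mean of 50 or more, with up to 2 examples per other list. Further genes were named after their values were seen. The values of 1 member are not reported here.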

Additional observations from a re-analysis of the deposited data

Results flagged for a closer look

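A sample far from the other 7 of its group was looked for in 12 genes and 3 summary measures over 12 groups, 180 tests in all, where chance alone gives about 1 in 20. It was found in 21, and 10 of these were methyl mercury IC20/100 replicate 8. In that library nuclear subunits took 1.07% of reads and the mean log2 of mitochondrial minus nuclear members was 3.19. Its values were 83703 for MT-CO3, 180066 for MT-CO1, 1068 for ATP5MC1, 2095 for UQCRFS1, 2101 for ATP5MF, 3325 for COX7A2L, 1056 for NDUFA7 and 7215 for COX4I1, each the highest of its group.

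The other 11 were spread over groups. The mean log2 of mitochondrial minus nuclear members was 3.48 in valproic acid IC20/100 replicate 6. MT-CYB was at 24525 in NPC replicate 2 and ATP5MC1 at 516 in acrylamide IC5 replicate 2. NDUFA9 was at 736 in NPC replicate 1, 294 in chlorpyrifos IC5 replicate 4 and 196 in fluoxetine IC20/100 replicate 4. ATP5MF was at 1138 in acrylamide IC20/100 replicate 4 and 1489 in valproic acid IC5 replicate 7. COX7A2L was at 2514 in valproic acid IC5 replicate 5, and COX4I1 at 3559 in NPC replicate 3 and 3460 in acrylamide IC5 replicate 7.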

How the results depend on the processing

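Of the 199 calls of named genes that were followed, a subset of all calls, none changed direction. The median nuclear difference between methyl mercury concentrations went from -0.10 to 0.02 without methyl mercury IC20/100 replicate 8, and medians over all members near 0 (fluoxetine concentrations, valproic acid IC20/100) changed sign under some alternatives. Leaving that library out, an alternative chosen with earlier results known, moved the members called from 14 to 28 (chlorpyrifos IC5), 8 to 16 (chlorpyrifos IC20/100), 3 to 17 (fluoxetine IC5), 7 to 17 (fluoxetine IC20/100), 4 to 18 (methyl mercury IC5), 29 to 17 (methyl mercury IC20/100), 2 to 4 (valproic acid IC20/100), and, between concentrations, 5 to 9 (fluoxetine), 2 to 1 (methyl mercury) and 20 to 33 (valproic acid). The share of all genes called rose too, but fell for methyl mercury IC20/100 and between methyl mercury concentrations. Without that library these shares, higher and lower, were 12.3% and 11.5% for chlorpyrifos IC5 and 8.93% and 8.62% for IC20/100. Fluoxetine had 7.68% and 7.64% at IC5 and 8.89% and 9.20% at IC20/100. Methyl mercury had 7.27% and 7.37%, then 6.65% and 6.72%, and valproic acid IC20/100 2.26% and 2.33%. Between concentrations the shares were 3.47% and 2.36% (fluoxetine), 2.33% and 2.21% (methyl mercury) and 11.7% and 9.55% (valproic acid). With only the libraries compared, the counts were 7 for fluoxetine IC5, 12 for methyl mercury IC5, 1 for methyl mercury IC20/100, 0 for valproic acid IC20/100 and 0 between methyl mercury concentrations. Replicate numbers paired the libraries weakly at most. In a comparison at most 3 of 8 pairs correlated over 0.1, and at most 5 of 8 libraries matched best with their own number. These numbers were highest for chlorpyrifos IC5, fluoxetine IC20/100 and valproic acid IC5 against controls. Replicates of those groups followed the same order of sequencing runs as the controls, so that run and replicate number cannot be told apart there. The replicate block gave 76 calls in differentiation, 5 for fluoxetine IC5, 8 for methyl mercury IC5 and 4 for valproic acid IC20/100. Valproic acid IC20/100 had 1 call without the filter and 4 with libraries scaled to all reads or to nuclear reads. Between methyl mercury concentrations there were 0 without the filter, 6 with edgeR and with DESeq2, and 1 without the run term. Leaving out each library in turn (exposed and NPC libraries added after seeing the data) gave 76 to 79 calls in differentiation, 36 to 40 for acrylamide IC5, 12 to 15 and 5 to 8 for chlorpyrifos IC5 and IC20/100, 2 to 5 and 6 to 9 for fluoxetine, 3 to 5 and 25 to 38 for methyl mercury, 26 to 32 and 1 to 4 for valproic acid, and, between concentrations, 30 to 37 (acrylamide), 4 to 5 (fluoxetine), 0 to 5 (methyl mercury) and 17 to 26 (valproic acid). The cause was not tested. Of the 199 calls, 199 held with either pseudocount, 195 and 194 with the 2 scalings, 195 with DESeq2, 194 with the block, 193 with edgeR, 188 without the run term and 187 without the filter, and with only the libraries compared, which bears on day 10 calls alone, 125 held and 28 were lost. Low counts limit the 6 untested members.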
